A study of Mus musculus with 6 samples.

Results

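Retinoid storage and metabolism genes were followed in mouse epithelioid hemangioendothelioma (EHE), a cancer of endothelial cells, and compared with liver. They were 9 genes of the 55401 in the count table, chosen by symbol: Rbp4, Stra6, Lrat, Rdh7, Rdh16f2, Rdh10, Rdh12, Aldh1a1 and Aldh1a3. The study sequenced polyadenylated RNA of 3 EHE tumours taken from the peritoneal surface and of 3 livers, all of C57BL6 background. The title of the series names a genetically engineered mouse model. The engineered alleles, any Cre driver, the ages and the number of animals behind each group are not stated in the labels, so the p-values below measure the spread between these samples, whose source may be technical. Being a tumour and being another tissue than liver cannot be told apart in this design.

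Vitamin A travels in plasma as retinol bound to retinol-binding protein, which the liver secretes, and is stored as retinyl esters, mainly in hepatic stellate cells. Inside a cell, alcohol and short-chain dehydrogenases oxidise retinol to retinal, and ALDH1A enzymes oxidise retinal to retinoic acid. Retinoic acid acts through RAR and RXR nuclear receptors until CYP26 enzymes hydroxylate it.

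Libraries held 33881392 to 40277346 counts. TMM scaling, which corrects library totals for composition, gave factors of 1.52 to 1.62 in tumours and 0.612 to 0.682 in livers. The median log2 difference over the genes tested was 0.10 with TMM and 1.38 with library totals alone, and tumour minus liver differences below are those with TMM unless stated. CPM denotes TMM-scaled counts relative to library size. All 8 hepatocyte markers fell, and they summed to 1.75, 4.19 and 1.23 CPM in tumours 1 to 3, against 176854, 148291 and 226957 CPM in livers 1 to 3. All 8 vascular endothelial markers rose, and they summed to 3379, 1752 and 2807 CPM in tumours 1 to 3, against 130.02, 160.0 and 177 CPM in livers 1 to 3.

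Rbp4, Lrat, Rdh7, Rdh16f2 and Aldh1a1 fell, Aldh1a3, Stra6 and Rdh12 rose, and Rdh10 did not pass. All 9 genes passed the filter on low counts, and by edgeR's quasi-likelihood test 5 were called lower and 3 higher at an adjusted p under 0.05. Among all 17387 genes tested, 28.7% were called lower and 29.5% higher, or 58.2% in either direction. Tumour and liver values did not overlap for 8 of the 9 genes, against 68.2% of the genes tested. The median log2 difference of the 9 genes was -4.81. In bulk tissue, fewer cells of a type and less RNA per cell cannot be told apart.

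**Figure D1:**
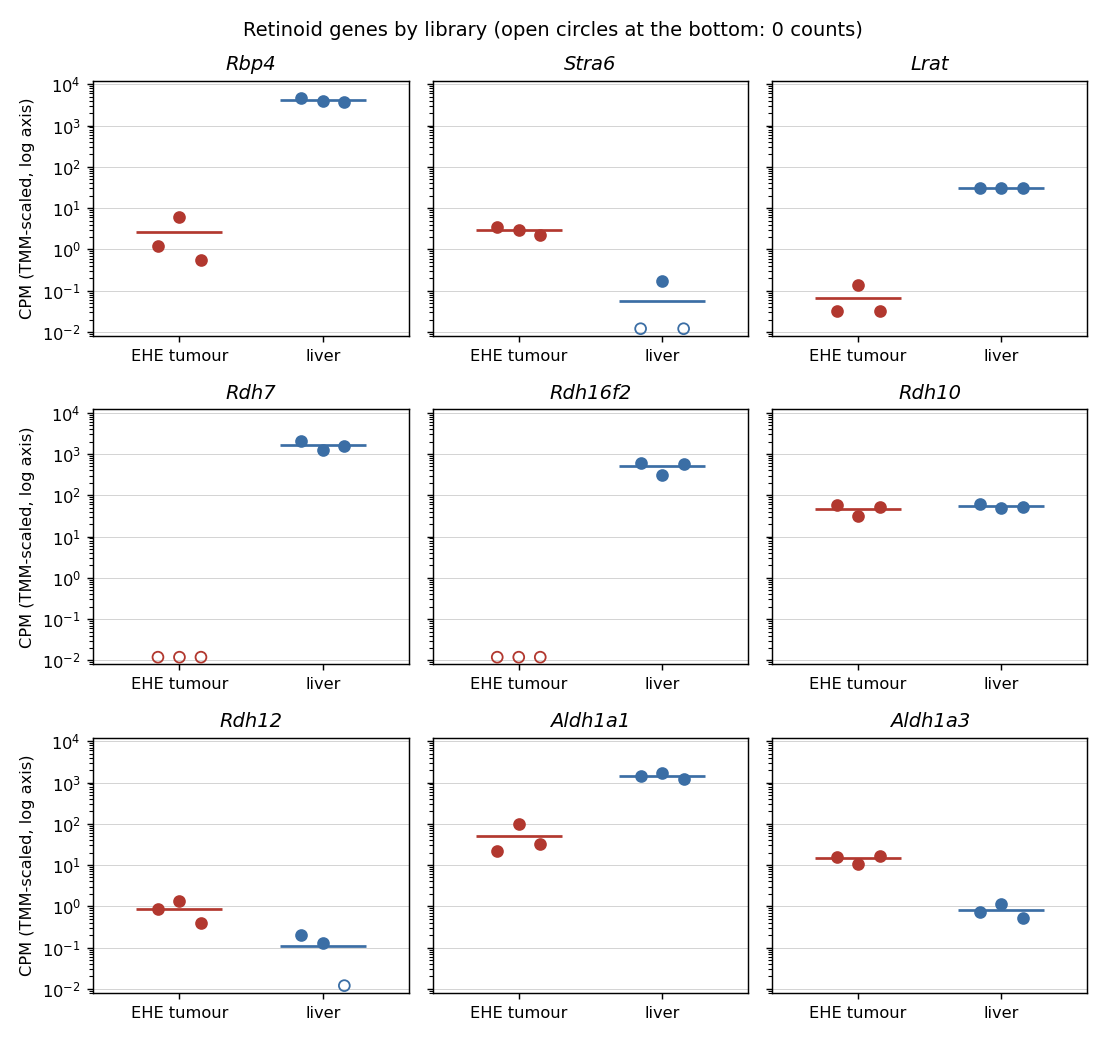
TMM-scaled CPM (log axis) of each of the 9 genes in the 3 EHE tumours (red) and the 3 livers (blue), with a line at each group's mean and open circles for 0 counts. Tumours lie below livers for Rbp4, Lrat, Rdh7, Rdh16f2 and Aldh1a1 and above them for Stra6, Rdh12 and Aldh1a3, and Rdh10 overlaps.

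Rdh16f2 (chr10:127866474-127877317, plus strand) and Rdh7 (chr10:127884028-127888817, minus strand) are neighbours that point towards each other, in a stretch of chromosome 10 that also holds Rdh1, Rdh9, Rdh16 and Rdh19 (GENCODE release M21 on GRCm38, the assembly of mm10). Their longest reading frames were 84.3% identical, whereas that of Rdh7 was 48.4% identical to Rdh10 and 48.9% to Rdh12. RefSeq (GRCm38.p6) gave upstream sequence for 7 of the 9 genes, all but Rdh10 and Aldh1a3, and the 250 bases before the farthest upstream start were searched on both strands for AGGTCA (the half-site of nuclear receptors such as RAR and RXR), GGAATG (the site of TEAD proteins, DNA-binding partners of the TAZ protein that is fused in most human EHE), TATAAA (the core promoter box), CAAAGTCCA (an HNF4 site) and the palindromic HNF1 site. Shown are both chromosome 10 neighbours and Lrat, which were almost absent from tumours, and Stra6, which rose, 5′ to 3′ on the gene's strand with matches in capitals. The windows are chr10:127889248-127889497 (minus strand) for Rdh7, chr10:127866226-127866475 (plus strand) for Rdh16f2, chr3:82903975-82904224 (minus strand) for Lrat and chr9:58128838-58129087 (plus strand) for Stra6. RefSeq lists 2 starts for Rdh7 and 4 for Stra6. Compared with the RefSeq start used, the GENCODE model of Stra6 begins farther upstream and that of Rdh7 farther downstream. Distances below are from the RefSeq starts.
Rdh7: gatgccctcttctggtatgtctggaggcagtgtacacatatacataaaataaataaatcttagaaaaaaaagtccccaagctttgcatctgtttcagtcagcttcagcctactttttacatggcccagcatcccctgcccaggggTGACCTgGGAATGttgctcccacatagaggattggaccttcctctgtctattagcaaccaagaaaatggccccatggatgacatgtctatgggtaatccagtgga
Rdh16f2: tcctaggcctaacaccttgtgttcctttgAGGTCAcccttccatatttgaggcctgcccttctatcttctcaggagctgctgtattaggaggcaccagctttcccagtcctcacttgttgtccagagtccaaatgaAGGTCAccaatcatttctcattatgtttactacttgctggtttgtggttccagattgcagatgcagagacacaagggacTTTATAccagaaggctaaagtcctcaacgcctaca
Lrat: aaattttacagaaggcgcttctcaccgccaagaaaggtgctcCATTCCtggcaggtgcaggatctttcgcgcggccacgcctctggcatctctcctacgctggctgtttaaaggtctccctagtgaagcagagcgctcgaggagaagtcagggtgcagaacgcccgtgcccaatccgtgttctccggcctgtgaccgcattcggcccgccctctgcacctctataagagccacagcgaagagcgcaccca
Stra6: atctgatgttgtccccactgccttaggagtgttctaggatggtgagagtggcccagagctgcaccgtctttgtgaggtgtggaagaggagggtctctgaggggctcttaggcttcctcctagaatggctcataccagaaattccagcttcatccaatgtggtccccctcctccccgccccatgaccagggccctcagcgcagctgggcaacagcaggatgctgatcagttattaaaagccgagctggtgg
Rdh7 held 1 half-site beginning 105 bases before the start and 1 TEAD site at 98 bases. Rdh16f2 held 2 half-sites, at 221 and 114 bases. It also held the letters of the core promoter box at 35 bases, on the strand opposite to the gene. Lrat held 1 TEAD site at 208 bases, and none of the letters searched were in the Stra6 window. No matches shared a base. Of the windows not shown, Aldh1a1 held 1 TEAD site and Rbp4 and Rdh12 held no match. Among 32851 windows of this length in the table, 14.0% held the half-site, 12.6% the TEAD site, 12.4% the core promoter box, 0.384% the HNF4 site and 0.00913% the HNF1 site. These are matches of letters only. In a global alignment the windows of Rdh7 and Rdh16f2 were 43.4% identical, far less than their reading frames.

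The plasma carrier was the most abundant of the 9 in livers and scarce in tumours. Rbp4 (ENSMUSG00000024990; chr19:38116629-38125281, minus strand) encodes retinol-binding protein 4, which carries retinol in blood. It had 1.18, 6.26 and 0.561 CPM in tumours 1 to 3, against 4628, 3999 and 3769 CPM in livers 1 to 3. All tumours lay below all livers, and tumour 2 was the highest tumour. Rbp4 fell by 10.60 on the log2 scale (SE 1.21; edgeR, adjusted p = 0.000358), and it fell by 12.20 without tumour 2. The tumour values rest on 72, 366 and 35 counts.

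Transthyretin (Ttr, ENSMUSG00000061808), the plasma protein that binds the Rbp4 carrier and keeps it in the circulation, was also low in tumours. It had 0.0819, 0.171 and 0.818 CPM in tumours 1 to 3, against 9959, 8329 and 7386 CPM in livers 1 to 3. The groups were far apart, and tumour 3 was the highest tumour. Ttr fell by 14.53 on the log2 scale (SE 1.19; edgeR, adjusted p = 8.1e-05), and it fell by 16.01 without tumour 3. With 0.5 CPM added to each gene, the log2 ratio of Rbp4 to Ttr was 1.53, 3.33 and -0.31 in the tumours and -1.11, -1.06 and -0.97 in the livers, in library order. Every tumour exceeded every liver, by 2.56 between the group means (exact two-sided permutation test, p = 0.1, the smallest that 3 against 3 samples allow). That difference was 1.65 without tumour 2 and 3.48 without tumour 3. The added 0.5 CPM is more than the Ttr level of tumours 1 and 2 and so sets part of their ratios.

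Stra6 (ENSMUSG00000032327; chr9:58063788-58153996, plus strand) encodes the membrane receptor that takes up retinol from Rbp4. It had 3.52, 2.99 and 2.23 CPM in tumours 1 to 3, against 0, 0.173 and 0 CPM in livers 1 to 3. The groups did not overlap, and among livers there were 4 counts, all in liver 2, against 215, 175 and 139 counts in tumours 1 to 3. Liver 2 also held counts for more genes than livers 1 and 3 (33274, against 19767 and 19001). Stra6 rose by 5.62 on the log2 scale (SE 1.06; edgeR, adjusted p = 0.00347). Without liver 2 the fitted difference was 10.08, which depends on the prior count since the other livers are at 0. Stra6l, the gene of the related receptor RBPR2, had 0.835, 1.26 and 1.09 CPM in tumours and 163, 195 and 235 CPM in livers and fell by 7.53 on the log2 scale (SE 0.30; edgeR, adjusted p = 1.12e-05).

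Lrat (ENSMUSG00000028003; chr3:82892579-82903973, minus strand) encodes lecithin retinol acyltransferase, which makes the retinyl esters that stellate cells store. It had 0.0327, 0.137 and 0.0321 CPM in tumours 1 to 3, against 31.2, 31.6 and 30.2 CPM in livers 1 to 3. The livers were nearly equal, and the tumours, with 2, 8 and 2 counts, all lay below them. Lrat fell by 8.80 on the log2 scale (SE 0.50; edgeR, adjusted p = 2.09e-05), and it fell by 9.76 without tumour 2. A list of 10 other stellate cell markers summed to 589, 990.5 and 556 CPM in tumours 1 to 3, against 828, 895 and 833 CPM in livers 1 to 3. Of these markers 5 fell, 1 rose and none was at 0 in a group. Most of the sum in both groups came from Dcn and Ecm1, which did not pass (edgeR, adjusted p = 0.128 and 0.152). Ecm1 had 108, 291 and 64.1 CPM in tumours 1 to 3, against 274, 339 and 300 CPM in livers 1 to 3. Dcn, which encodes a proteoglycan that fibroblasts also make, had 399, 559 and 401 CPM in tumours 1 to 3, against 369.9, 298 and 303 CPM in livers 1 to 3. The other 8 markers summed to 81.5, 140.2 and 91.1 CPM in tumours 1 to 3, against 184, 259 and 229.6 CPM in livers 1 to 3, a division chosen after the values were seen. The part of stellate cell number in the Lrat result was not tested.

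Both neighbouring dehydrogenases of chromosome 10 were detected in livers alone. Rdh7 (ENSMUSG00000040134), a retinol dehydrogenase, had 0 counts in each tumour and 51214, 28523 and 38672 counts in livers 1 to 3, which is 2077, 1236 and 1596 CPM. With a floor of 3 counts per library it was at least 33060-fold lower in tumours (edgeR, adjusted p = 3.45e-05). Rdh16f2 (ENSMUSG00000074639), its paralog, had 0 counts in each tumour and 14931, 7345 and 14076 counts in livers 1 to 3, which is 606, 318 and 581 CPM. It was at least 10134-fold lower in tumours (edgeR, adjusted p = 4.78e-05). Liver 2 was the lowest liver for both, and the bounds cover counting error only.

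Paralogs of this cluster can share reads. Of the 50-base words in Rdh7 transcripts 12.9% also occurred in another gene, mainly the pseudogene Rdh18-ps, and of those in Rdh16f2 transcripts 10.03% did, mainly Rdh9. How such reads were counted is unknown, which leaves the liver levels uncertain to that extent. Rdh16, a further paralog, had 0.0491, 0.0684 and 0.128 CPM in tumours and 285, 318 and 163 CPM in livers and fell by 11.55 on the log2 scale (SE 0.52; edgeR, adjusted p = 1.21e-05). Rdh9 had 0 counts in each tumour and 201, 100 and 515 counts in livers, at least 227-fold lower or, without liver 3, at least 126-fold lower, yet its deposited FPKM (a level per transcript length) was 0.0694 to 0.155 in tumours. Exons of Rdh9 overlap those of Rdh16f1 on the same strand by up to 1879 bases, and its value is uncertain. Rdh19 had 0 counts in each tumour and 10, 11 and 11 counts in livers, too few for the test and at least 9.0-fold lower.

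Rdh10 (ENSMUSG00000025921; chr1:16105774-16133734, plus strand) encodes the retinol dehydrogenase needed for retinoic acid synthesis in the embryo. It had 58.8, 31.3 and 52.7 CPM in tumours 1 to 3, against 61.6, 48.9 and 52.6 CPM in livers 1 to 3. The groups overlapped, and tumour 2 was the lowest library. The log2 difference was -0.19 (SE 0.25; edgeR, adjusted p = 0.545). With library totals alone it was 1.09 (edgeR, adjusted p = 0.00713) and with limma on log2(FPKM + 1) 0.92 (adjusted p = 0.0169), over a range of adjusted p from 0.00713 to 0.946 across alternatives. Relative to the median gene, Rdh10 stood at -0.29 with TMM and at -0.28 with library totals.

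Rdh12 (ENSMUSG00000021123; chr12:79208914-79222665, plus strand) encodes a retinal reductase best known from photoreceptors. It had 0.851, 1.37 and 0.385 CPM in tumours 1 to 3, against 0.203, 0.130 and 0 CPM in livers 1 to 3. Every tumour exceeded every liver, at 52, 80 and 24 counts in tumours and 5, 3 and 0 in livers. Rdh12 rose by 2.93 on the log2 scale (SE 1.01; edgeR, adjusted p = 0.04). The call was lost when tumour 1, tumour 2 or any one liver was left out (edgeR, adjusted p from 0.0649 to 0.113) and with limma-voom (adjusted p = 0.0518), over a range from 0.00843 to 0.113 across alternatives. Without liver 1 the difference was 3.72.

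The retinoic acid-forming enzymes changed in opposite directions. Aldh1a1 (ENSMUSG00000053279; chr19:20492715-20643465, plus strand) encodes a retinal dehydrogenase that is abundant in hepatocytes. It had 21.3, 100.2 and 32.5 CPM in tumours 1 to 3, against 1463, 1674 and 1185 CPM in livers 1 to 3. All tumours lay below all livers, with tumour 2 well above the other tumours. Aldh1a1 fell by 4.81 on the log2 scale (SE 0.67; edgeR, adjusted p = 0.00088), and it fell by 5.73 without tumour 2. Of its 50-base transcript words 3.06% were shared, all of them with Aldh1a7.

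Aldh1a3 (ENSMUSG00000015134; chr7:66390890-66427517, minus strand) encodes another retinal dehydrogenase. It had 15.8, 10.8 and 16.8 CPM in tumours 1 to 3, against 0.730, 1.17 and 0.537 CPM in livers 1 to 3. All tumours lay above all livers. Aldh1a3 rose by 4.15 on the log2 scale (SE 0.39; edgeR, adjusted p = 0.000138). With 0.5 CPM added to each gene, the log2 ratio of Aldh1a3 to Aldh1a1 was -0.42, -3.15 and -0.93 in the tumours and -10.22, -9.97 and -10.16 in the livers, in library order. It was 8.61 higher in tumours (exact two-sided permutation test, p = 0.1, again the smallest possible), and 9.44 higher without tumour 2.

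The 3 other genes listed with these dehydrogenases also split. Aldh1a2, the retinal dehydrogenase that makes most retinoic acid in the early embryo, had 23.1, 32.5 and 15.8 CPM in tumours and 0.324, 0.780 and 0 CPM in livers and rose by 6.02 on the log2 scale (SE 0.88; edgeR, adjusted p = 0.00111), or by 7.18 without liver 2. Aldh1a7, whose reading frame was 91.7% identical to that of Aldh1a1, had 0.360, 1.68 and 0.160 CPM in tumours and 295, 303 and 273 CPM in livers and fell by 8.63 on the log2 scale (SE 0.94; edgeR, adjusted p = 0.000289), and it fell by 10.10 without tumour 2. Aldh8a1, a dehydrogenase that can act on retinal, held 2 counts over all tumours, both in tumour 1, and 14417, 11579 and 13675 counts in livers 1 to 3. Its ratio of liver to tumour was 50155 (95% exact binomial interval 13884 to 414162, counting error only). Without tumour 1 the tumours held 0 counts, and Aldh8a1 was at least 11075-fold lower.

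FPKM values allow levels of different genes to be compared. Of the FPKM summed over Aldh1a1, Aldh1a2, Aldh1a3 and Aldh1a7, Aldh1a1 took 56.1% ± 15.8 in tumours and 83.4% ± 1.61 in livers (SD over 3 libraries per group, also below). Aldh1a2 took 29.7% ± 9.98 in tumours and 0.0122% ± 0.01205 in livers. Aldh1a3 took 13.4% ± 7.53 in tumours and 0.0297% ± 0.0166 in livers. The livers instead had Aldh1a7 as their second gene, which took 0.743% ± 0.502 in tumours and 16.6% ± 1.64 in livers. The sum itself was 34.1, 85.7 and 38.2 in the tumours and 517, 557 and 427 in the livers, in library order.

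Among Rdh7, Rdh16f2, Rdh10 and Rdh12, Rdh10 took 95.4% ± 3.37 in tumours and 1.03% ± 0.182 in livers. Tumours held the summed FPKM of these genes almost wholly as Rdh10, although its CPM did not pass the test between groups. The sum leaves out the dehydrogenases and reductases outside the set. Of those, Dhrs3, Adh5, Rdh14 and Rdh11 had mean tumour FPKM of 93.4, 46.9, 11.7 and 8.30, beside 17.6 for Rdh10. In livers Rdh7 took 69.7% ± 3.65 and Rdh16f2 29.3% ± 3.78. The sum was 22.4, 11.99 and 20.5 in the tumours and 1077, 592 and 887 in the livers, in library order.

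**Figure D2:**
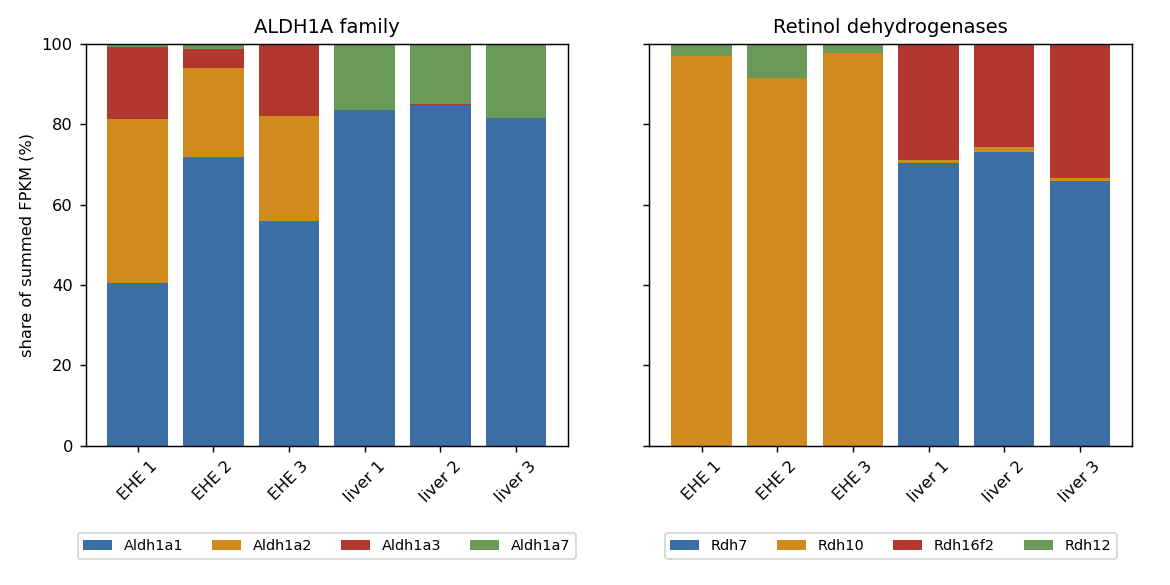
Share of the FPKM (%) summed over 4 genes in each of the 3 EHE tumours and 3 livers, for the ALDH1A family (left) and for the retinol dehydrogenases and reductase of the set (right). Rdh10 holds at least 91.6% of the sum in each tumour, while Rdh7 and Rdh16f2 hold most of it in livers, and Aldh1a2 and Aldh1a3 take visible shares in tumours alone.

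By mean FPKM the order in tumours was Aldh1a1 (32.3 ± 25.7), Rdh10 (17.6 ± 5.78), Aldh1a3 (5.62 ± 1.41), Rbp4 (4.26 ± 4.66), Stra6 (1.38 ± 0.248), Rdh12 (0.721 ± 0.278) and Lrat (0.0168 ± 0.0145), with Rdh7 and Rdh16f2 listed at 0 (mean ± SD, n = 3, also for livers). Neighbours overlapped for Aldh1a1 with Rdh10, Aldh1a3 with Rbp4 and Rbp4 with Stra6. In livers the order was Rbp4 (2879 ± 329), Rdh7 (591 ± 162), Aldh1a1 (418 ± 62.9), Rdh16f2 (253 ± 86.9), Rdh10 (8.52 ± 1.22), Lrat (3.25 ± 0.0756) and Aldh1a3 (0.155 ± 0.103), followed by Rdh12, listed at 0.117 in liver 1 and at 0 in livers 2 and 3, and Stra6, listed at 0 in all. Among the livers' neighbours, Rdh7 overlapped Aldh1a1, Aldh1a3 overlapped Rdh12, and Rdh12 overlapped Stra6. An FPKM of 0 may be a failed estimate in these files. Each library held 289 to 470 genes with 100 or more counts and an FPKM of 0. For Stra6, liver 2 held 4 counts beside an FPKM of 0.

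Tumour 2 was the highest tumour for Rbp4, Aldh1a1, Lrat and Rdh12 and the lowest for Rdh10 and Aldh1a3. Among the tumours it also had the highest sums of adipocyte, mesothelial and skeletal muscle markers and, as given above, of hepatocyte and stellate cell markers, and the lowest sum of endothelial markers. The 8 adipocyte markers, of which Lipe also stands among the retinoid genes below, summed to 197, 489.9 and 65.2 CPM in tumours 1 to 3, against 22.6, 27.1 and 20.7 CPM in livers 1 to 3. The 8 mesothelial markers summed to 89.3, 266 and 82.7 CPM in tumours 1 to 3, against 34.8, 14.9 and 4.004 CPM in livers 1 to 3. The 7 matched skeletal muscle markers, which are genes of myofibres, summed to 821, 7769.9 and 1638 CPM in tumours 1 to 3, against 1.298, 2.12 and 1.32 CPM in livers 1 to 3. The 8 fibroblast markers summed to 2412, 1451 and 1783 CPM in tumours 1 to 3, against 61.4, 64.1 and 48.4 CPM in livers 1 to 3. Among tumours their sum was lowest in tumour 2, as was Thy1, at 1183, 358 and 1144 CPM in tumours 1 to 3. Col1a1 in tumour 2 lay between the other tumours, while Pdgfra, Col1a2, Dpt, Pi16, Lum and Fap were highest in tumour 2. Of these lists 6 adipocyte, 5 mesothelial, 6 muscle and 8 fibroblast markers rose and none fell, with Myh1 and Tnnc2 of the muscle list at 0 in livers. Tnnc2 had only 2, 7 and 2 counts in tumours 1 to 3 and was not tested. Its deposited FPKM was 222, 2022 and 474 in tumours 1 to 3, so its level is uncertain. Without tumour 2 the 5 falls and the rises of Stra6 and Aldh1a3 kept their calls. Tumours 1 and 3 also exceeded all livers in the adipocyte, mesothelial, muscle and fibroblast sums, so leaving out tumour 2 does not remove these cells. The part of these cells was not tested.

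**Figure D3:**
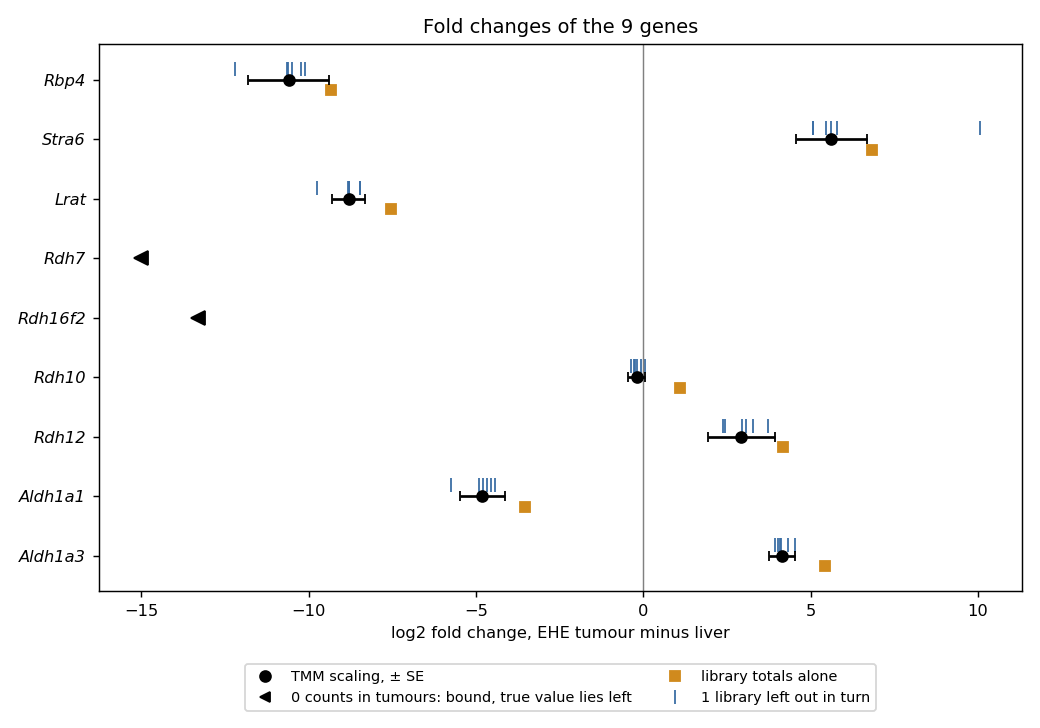
Log2 fold change of each gene, EHE tumour minus liver, with TMM scaling (black, ± SE), with library totals alone (orange squares) and with each library left out in turn (blue ticks). Arrowheads mark bounds for Rdh7 and Rdh16f2, which had 0 counts in tumours, and Rdh10 is the gene whose orange square lies on the other side of 0 from its TMM value.

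Most of the wider retinoid pathway was lower in tumours. Of 45 other pathway genes 39 were tested, and 26 fell, 5 rose and 8 did not pass, beside the 28.7% lower and 29.5% higher of all genes tested. Their median log2 difference was -3.44. The genes that rose were Rbp7, Lpl, Aldh1a2, Cyp26b1 and Rarg. With library totals alone 21 were called lower and 10 higher.

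**Figure D4:**
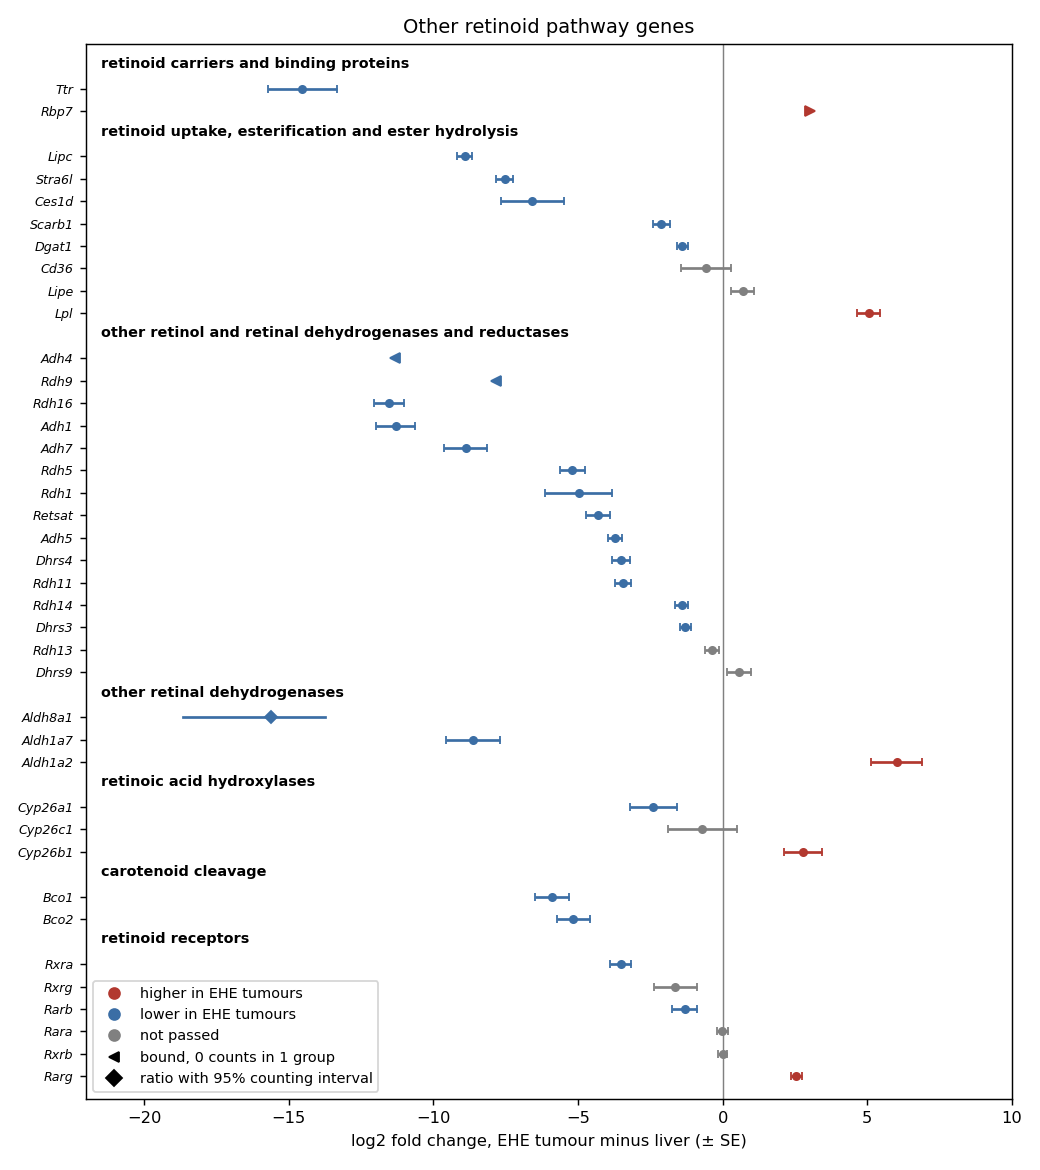
Log2 fold change (± SE), EHE tumour minus liver, of the 39 tested retinoid pathway genes outside the set of 9, grouped by role. Red genes were called higher and blue genes lower in tumours, grey genes did not pass, arrowheads are bounds for genes at 0 counts in a group and the diamond is a ratio with its 95% counting interval; both carotenoid-cleaving enzymes and 13 of 15 dehydrogenases and reductases are blue.

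Of the 5 carriers and binding proteins 2 were tested, and Rbp7 rose while Ttr fell. Rbp7, a retinoid-binding protein of fat and endothelium, had 56, 29 and 101 counts in tumours and 0 in each liver, at least 8.07-fold higher (edgeR, adjusted p = 0.00451).

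Among 8 genes of uptake and ester handling 5 fell and 1 rose. The riser, Lpl, encodes a lipoprotein lipase that also hydrolyses retinyl esters of chylomicrons. It had 927, 1002 and 1027 CPM in tumours and 33.2, 17.2 and 38.8 CPM in livers and rose by 5.05 on the log2 scale (SE 0.40; edgeR, adjusted p = 6.42e-05). Ces1d, a carboxylesterase, had 8.19, 26.2 and 1.48 CPM in tumours and 1516, 1094 and 826 CPM in livers and fell by 6.58 on the log2 scale (SE 1.09; edgeR, adjusted p = 0.00198), and it fell by 7.88 without tumour 2. The fatty acid receptor Cd36 had 53.1, 364 and 30.4 CPM in tumours and 177, 275 and 219.9 CPM in livers and did not pass (log2 difference -0.59; edgeR, adjusted p = 0.586). Tumour 2 was the highest library for it, and without tumour 2 Cd36 was called lower at -2.42 (edgeR, adjusted p = 0.000623, range 0.000623 to 0.925 across alternatives).

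Of 18 other dehydrogenases and reductases 15 were tested, 13 fell, and Rdh13 and Dhrs9 did not pass. Adh1, the main alcohol dehydrogenase of liver, had 1.23, 2.53 and 0.898 CPM in tumours and 4817, 3745 and 3255 CPM in livers and fell by 11.31 on the log2 scale (SE 0.68; edgeR, adjusted p = 2.47e-05). Adh5, which is made in most tissues, had 40.8, 42.8 and 50.6 CPM in tumours and 657, 531 and 579.9 CPM in livers and fell by 3.72 on the log2 scale (SE 0.24; edgeR, adjusted p = 2.95e-05). Dhrs3, which reduces retinal to retinol, had 97.7, 108 and 93.4 CPM in tumours and 259, 249 and 223 CPM in livers and fell by 1.29 on the log2 scale (SE 0.18; edgeR, adjusted p = 0.000854). The Dhrs3 call was lost in 4 of 18 alternatives (range of adjusted p from 3.54e-15 to 0.953). These were library totals alone (-0.01; edgeR, adjusted p = 0.953) and all 3 limma fits on FPKM (-0.13 with FPKM + 1, filtered or not, and -0.14 with FPKM + 0.1).

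Both carotenoid oxygenases fell. Bco1, which makes retinal from beta-carotene, had 0.196, 0.137 and 0.321 CPM in tumours and 10.2, 7.85 and 21.5 CPM in livers and fell by 5.89 on the log2 scale (SE 0.58; edgeR, adjusted p = 0.000188). Bco2, which cleaves carotenoids off centre, had 0.688, 1.93 and 0.449 CPM in tumours and 40.2, 38.1 and 32.6 CPM in livers and fell by 5.17 on the log2 scale (SE 0.57; edgeR, adjusted p = 0.000305), and it fell by 6.01 without tumour 2.

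The enzymes that clear retinoic acid divided, with Cyp26b1 higher and Cyp26a1 lower in tumours. Cyp26b1 had 20.5, 101 and 23.0 CPM in tumours 1 to 3, against 6.98, 7.37 and 6.89 CPM in livers 1 to 3. Every tumour exceeded every liver, and tumour 2 was the highest. Cyp26b1 rose by 2.77 on the log2 scale (SE 0.65; edgeR, adjusted p = 0.00895), or by 1.63 without tumour 2. Cyp26a1, a hydroxylase that retinoic acid induces, had 10.2, 0.991 and 3.90 CPM in tumours 1 to 3, against 39.7, 26.8 and 13.1 CPM in livers 1 to 3. Its groups did not overlap but spread widely. Cyp26a1 fell by 2.40 on the log2 scale (SE 0.81; edgeR, adjusted p = 0.0378), and it fell by 3.43 without tumour 1, and the call was lost in 8 of 18 alternatives (range of adjusted p from 0.00416 to 0.234), among them library totals alone and leaving out tumour 3, liver 1 or liver 2. Cyp26c1 had 0.802, 0.0342 and 0.160 CPM in tumours and 0.771, 0.780 and 0.0825 CPM in livers and did not pass (log2 difference -0.70, or -2.43 without tumour 1; edgeR, adjusted p = 0.64).

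Of 6 retinoid receptors 1 rose, 2 fell and 3 did not pass. Rarg, a retinoic acid receptor, had 77.0, 55.1 and 65.1 CPM in tumours and 12.5, 11.1 and 10.4 CPM in livers and rose by 2.54 on the log2 scale (SE 0.19; edgeR, adjusted p = 4.93e-05). Rxra, the retinoid X receptor that predominates in liver, had 46.9, 88.1 and 47.6 CPM in tumours and 653, 574 and 873 CPM in livers and fell by 3.52 on the log2 scale (SE 0.37; edgeR, adjusted p = 0.000229). Rxrb, another retinoid X receptor, had 37.7, 46.6 and 41.2 CPM in tumours and 43.1, 37.6 and 45.03 CPM in livers and did not pass (edgeR, adjusted p = 0.992), while with library totals alone it was called higher by 1.28 (edgeR, adjusted p = 0.000308, range 0.000308 to 0.989 across alternatives).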

How the data were processed

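RNA was isolated with a Qiagen kit and DNBSeq libraries were prepared, per the labels' protocols. The authors' FPKM values came from Cufflinks 2.2.1.3 after HISAT2 2.1.0 alignment to mm10, per the submitters' processing notes. The deposited counts are whole numbers by Ensembl gene. How they were counted, and whether by strand, is unknown. Between 66.7% and 70.7% of values from 1 to 10 are even in all libraries but liver 2, at 55.0%. Mates of a fragment may thus be counted separately and counting intervals too narrow. Liver 2, of lowest depth, also held counts for 33274 genes, against 19767 and 19001 in livers 1 and 3 and 22710 to 24722 in tumours. What this difference does to low liver values was not tested.

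Symbols came from the deposited FPKM files. The test was edgeR 4.0.16 in R 4.3.3 on counts, with filterByExpr (17387 of 55401 genes kept), TMM, robust quasi-likelihood without covariates, and Benjamini-Hochberg adjustment over the genes tested. SE is the log2 difference over the root of F. Genes at 0 counts in a group get a bound from a floor of 3 counts per library, genes with 1 to 3 counts a ratio with a 95% exact binomial interval. Both reflect counting alone, as PCR copies are not separate molecules. Depth was 33881392 to 40277346 counts. Alternatives used DESeq2 1.42.0, limma 3.58.1 (voom, or trend on log2 FPKM), other scalings and filters, a replicate block and left-out libraries. The tests were first run on simulated data. Replicates differed beyond sampling noise (chi-square per degree of freedom at least 95.8).

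The 9 genes and all lists were chosen with earlier results of these data known. Named are the 9, the 3 tested genes of each other list with the highest mean FPKM, Ttr, Aldh1a2, Aldh1a7, Rdh9, Rdh16 and Rdh19, and the nearest profile of each of the 9 at a mean of 1 CPM or more. Stra6l, Rdh13, Dhrs9, Rbp2 and the markers at 0 were named after their values were seen. Acta1 of the muscle list was not analysed here, and 1 pathway gene is not reported here.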

Additional observations from a re-analysis of the deposited data

How the results depend on the processing

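Rbp4, Lrat, Rdh7, Rdh16f2 and Aldh1a1 (lower) and Aldh1a3 and Stra6 (higher) kept their direction and call in all 18 alternatives tried. Leaving out each library in turn gave 2 to 3 higher and 5 lower among the 9 genes, 5 to 6 higher and 25 to 28 lower among the other retinoid genes, and 4201 to 5150 higher and 4286 to 5178 lower over all genes. Library totals alone gave 10688 higher and 2172 lower genes (83.1% of calls higher, against 50.8% with TMM) and 10 higher other retinoid genes. With limma on FPKM these numbers were 8613, 2031 and 9 (pseudocount 1), 8608, 2019 and 9 (pseudocount 0.1), and 9370, 2152 and 11 (pseudocount 1, no filter).

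Among the genes refitted under the alternatives (Stra6l, Rdh13 and Dhrs9 were not), the differences that turned sign were as follows, and beyond the shift of the median gene with library totals the cause was not tested. Rdh10 gave 1.09 with library totals, 0.92 with FPKM + 1 with and without a filter, 0.99 with FPKM + 0.1 and 0.0438 without tumour 2, within -0.36 to 0.0438 over left-out libraries. Cd36 gave 0.67 and Cyp26c1 0.52 with library totals, and Cyp26c1 gave 0.0755 with unfiltered FPKM + 1 and 0.18 without libraries 2 of both groups. Rxrb, near 0, gave 1.28 with library totals, 1.15 with FPKM + 1, filtered or not, 1.22 with FPKM + 0.1, 0.12 with no count filter, 0.0085 with RLE factors, 0.0084 with DESeq2, 0.0118 with TMM without the 100 most abundant genes, and -0.0785 to 0.0756 over left-out libraries.

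Leaving out libraries 2 of both groups cost Rdh12 its call (edgeR, adjusted p = 0.0874). That alternative, TMM without the 100 most abundant genes and the bounds with a library left out were chosen after seeing the data. Same-numbered tumours and livers did not deviate together (correlations 0.0190, 0.0373 and -0.0249), and no tumour correlated best with its own number. A replicate block gave 4516 higher and 4574 lower genes, 3 higher and 5 lower of the 9, and 5 higher and 26 lower of the other retinoid genes. The ratios of Rbp4 to Ttr and Aldh1a3 to Aldh1a1 ranged over their alternatives from 1.65 to 3.84 and from 7.57 to 9.44. Depth limits Stra6, Rdh12 and Rdh19, which held few counts in livers.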

Other observations

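The gene with the nearest profile was sought for each of the 9 genes at a mean of 1 CPM or more, by the Euclidean distance between mean-centred log2(CPM + 0.5) values over the 6 libraries. Such distances mostly follow the difference between tumours and livers. The added 0.5 CPM is more than the tumour values of Lrat, Rdh7 and Rdh16f2 and the liver values of Stra6, and so sets part of their distances. The nearest was Itih2 for Rbp4 (1.09), Ppm1j for Stra6 (0.158), Ugt1a6b for Lrat (0.138), Apoa5 for Rdh7 (0.334), C9 for Rdh16f2 (0.261), Zc2hc1c for Rdh10 (0.165), Cmbl for Aldh1a1 (0.309) and Mapk11 for Aldh1a3 (0.317). Mapk11, which encodes a p38 kinase, had 26.5, 16.6 and 28.0 CPM in tumours and 1.22, 1.69 and 1.20 CPM in livers, with its lowest tumour value in tumour 2 as for Aldh1a3. Cmbl, which encodes a hydrolase, had 3.57, 16.6 and 4.36 CPM in tumours and 263, 286 and 228 CPM in livers, with its highest tumour value in tumour 2 as for Aldh1a1. Mapk11 and Cmbl were chosen for likeness over these same libraries, so the shared tumour 2 values are no separate result.

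Rbp2, the retinol-binding protein of the intestine, had too few counts for the test, with 28, 2 and 88 counts in the tumours and 1, 0 and 0 in the livers. The ratio of tumour to liver was 46.7 (95% exact binomial interval 8.21 to 1859, counting error only), and tumour 2 overlapped the livers.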
